A study of Mus musculus with 44 samples.

Results

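The mouse genome holds many copies of the motif cut by the restriction enzyme AsiSI, and most of them were rarely cut in these cells. The sites described here were the 783 AsiSI motifs outside chromosome 2 whose listed cut fraction, the fraction of cells in which END-seq found the motif broken, was under 0.1. They made up 783 of the 1025 motifs outside chromosome 2 in the motif list supplied with the study, and of 1108 motifs in all once the bait was set aside. The cut fraction came from separate END-seq experiments, so no junction count was used to choose the sites. A junction was assigned to a site when its prey end lay under 500 bp from the cut. In 26 libraries of AsiSI-MEFs, 4231 of 113691 junctions were assigned to these sites, which was 3.72% of all junctions more than 10 kb from the bait. They were 7.62% of the 55538 junctions under 500 bp from any motif on another chromosome. No junction lay under 500 bp from both a rarely cut and a more often cut motif.

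High-throughput genome-wide translocation sequencing (HTGTS) starts from a primer next to 1 broken end, the bait, and reads into whatever sequence that end was joined to, the prey. AsiSI-MEFs are C57BL/6 mouse embryonic fibroblasts with an inducible AsiSI enzyme fused to a truncated estrogen receptor. The labels give the genotype of all libraries as WT, and the presence of AsiSI is taken from the study's methods. All 26 libraries came from cells given doxycycline (3 µg/ml, 24 h) and 4-hydroxytamoxifen (4OHT, 1 µg/ml, 6 h), so every library, controls included, had AsiSI breaks. Their bait was the AsiSI break at chr2:13271321 (mm10) in the 5′ untranslated region of Rsu1. The groups were 6 libraries with the ARP2/3 inhibitor CK-666 (100 µM) and 6 with DMSO, and 3 with the DNA-PKcs inhibitor NU7441 (10 µM) and 3 with DMSO. Another 2 had the N-WASP inhibitor wiskostatin (3 µM) and 2 DMSO, and 2 expressed the non-polymerizing nuclear actin mutant R62D-NLS and 2 an empty vector. In a further 6 libraries, 3 with DMSO and 3 with CK-666 (100 µM), WT MEFs without AsiSI were broken by Cas9 at the same chromosome 2 motif. No doxycycline or 4OHT is listed for these cells, which were transfected with a guide RNA. These libraries served as background. In the AsiSI-MEF experiments the inhibitors were given together with 4OHT, and NU7441 also before it. The 26 libraries held between 335 and 17479 junctions after the region within 10 kb of the bait was removed (median 4360). The 13 controls held between 997 and 17479 (median 4567) and the 13 treated libraries between 335 and 6348 (median 2766). Junctions at rarely cut sites numbered between 18 and 667 per library (median 143.5). The study calls its replicates biological and the labels do not name separate cultures, so p-values measure the spread between these libraries.

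AsiSI recognizes an 8-base palindrome with 2 CpG dinucleotides and does not cut it when the CpGs are methylated. Motifs in the unmethylated CpG islands of active promoters are therefore open to the enzyme, while most motifs in methylated DNA are protected. A translocation needs 2 broken ends. All AsiSI sites share the same motif, so a bait and a prey can be aligned over it where the joined ends keep it.

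The sequences below show the bait and the sites on which the results turn, on the plus strand of the RefSeq GRCm38 (mm10) genome, 5′ to 3′. Each run has 11 bases on either side of the motif, which is in capitals. The first 6 sites held the most junctions of all rarely cut sites, those of Col23a1 and Lrrc38 held none despite a listed cut fraction of 0.09, and that of Gprc5c passed a test for a change with NU7441.
Bait, Rsu1, chr2:13271317-13271324: accctgtcccaGCGATCGCgcaggcgcaca
Tmbim6, chr15:99393432-99393439: cgccccaccctGCGATCGCctctcggctgt
Tigd5, chr15:75909883-75909890: gctgagccgccGCGATCGCcggcgcccggc
Rpl41, chr10:128548254-128548261: catttctccagGCGATCGCggcgaggtgac
Naxd, chr8:11497707-11497714: tgctttccgccGCGATCGCgctccagtggt
Pcgf1, chr6:83078413-83078420: ggggccagattGCGATCGCgatgaggcttc
Enah, chr1:182020320-182020327: acgagccgggcGCGATCGCggagaggacca
Col23a1, chr11:51290398-51290405: ggtgagggcgcGCGATCGCcggccggggga
Lrrc38, chr4:143350308-143350315: cgtggactgtcGCGATCGCgggctgcccag
Gprc5c, chr11:114851673-114851680: tgtgggtgcgtGCGATCGCtgggagatgca

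Most rarely cut sites received no prey in any library, and a few received as much as a strongly cut site. At least 1 junction was found at 120 of the 783 sites (15.3%), and 663 sites (84.7%) had none. Among the 161 moderately cut sites, with a cut fraction from 0.1 to under 0.5, 141 (87.6%) had prey, and among the 81 strongly cut sites, with a cut fraction of at least 0.5, 79 (97.5%) did. The median site held 0 junctions in the rarely cut class, 114 in the moderately cut class and 297 in the strongly cut class. A site with no junction among the 113691 of all 26 libraries could still hold a share of up to 0.00264% (3 counts). The depth thus limits what an empty site can be taken to mean.

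The 120 sites with prey differed widely in how much they received. Of these, 86 sites had at least 2 junctions, 52 had at least 10, 21 had at least 50 and 10 had at least 100, with a median of 7. Exactly 1 junction was found at 34 sites. The 4 sites with the most prey held 37.2% of the 4231 junctions, the first 10 held 59.0%, and the first 52 held 95.3%. Recurrence followed the same division. Prey was found at 3 sites in all 26 libraries, at 38 sites in at least 13 libraries and at 52 sites in all 4 experiments, whereas 37 sites had prey in 1 experiment only. A single library contained prey at between 8 and 80 of these sites (median 41.5).

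**Figure D1:**
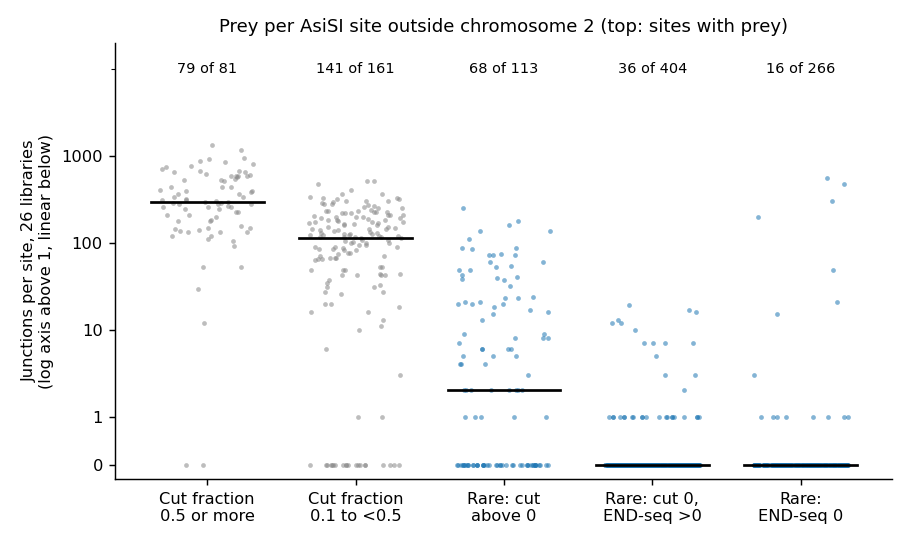
Junctions per site summed over the 26 AsiSI-MEF libraries (vertical axis, logarithmic above 1 and linear below) for the 3 classes of rarely cut sites and for moderately and strongly cut sites, 1 point per site, with the number of sites with prey above each column. Most rarely cut sites lie at 0, while 4 sites without END-seq signal lie at 197 to 549, within the range of the strongly cut sites.

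Prey followed the listed cut fraction even below the threshold of 0.1. Of the 670 sites with a cut fraction of 0, 52 (7.76%) had prey. Among the 113 sites with a cut fraction from 0.01 to 0.09, 68 (60.2%) had prey. At 0.01 the share was 14 of 25 sites (56.0%), at 0.02 and 0.03 it was 18 of 34 (52.9%), and at 0.04 and 0.05 it was 13 of 24 (54.2%). The share was 11 of 14 (78.6%) at 0.06 and 0.07 and 12 of 16 (75%) at 0.08 and 0.09. The median number of junctions per site was 7, 13.5 and 46.5 at the last 3 steps. The threshold itself marked no step. The 7 sites just inside it, at 0.09, held a median of 85 junctions (0 to 138, 5 sites with prey), and the 11 sites just outside it, at 0.10, held a median of 44 (0 to 175, 7 sites with prey). On both sides of the threshold lay sites of either kind. Inside, an intergenic motif near Gm37425 had 138 junctions and that of Lrrc38, a potassium channel subunit, had 0. Outside, the motif at the promoter shared by Gm12536 and the tyrosine phosphatase gene Ptpn3 had 175 and that of Med12l, which encodes a Mediator subunit, had 0.

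Per unit of END-seq signal, rarely cut sites with a cut fraction above 0 did not receive less prey than more often cut ones. END-seq maps broken ends directly, and its signal (RPKM) is available for each motif in the list. The ratio was computed for each control library as junctions per 1000 junctions of the library, divided by the summed END-seq signal of the class in units of 1000 RPKM. It was 5.54 ± 0.811 (SD, n = 13 libraries, 3.73 to 6.92) at rarely cut sites with a cut fraction above 0. At moderately cut sites it was 5.29 ± 0.665 and at strongly cut sites 4.23 ± 0.530 (SD, n = 13 each). The classes were chosen by cut fractions from the same END-seq list that gives the divisor. The difference between classes is therefore only described and was not tested. For the 404 sites with a cut fraction of 0 but some END-seq signal, the ratio was 2.90 ± 2.47 (SD, n = 13, 0 to 7.60), since these sites held only 161 junctions in the 26 libraries. Within a class the END-seq signal ordered the sites only loosely. Spearman's rho between junctions and END-seq signal was 0.37 over the 113 rarely cut sites with a cut fraction above 0, 0.55 over the 161 moderately cut and 0.53 over the 81 strongly cut sites. All these sites were counted in the same libraries.

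Sites listed with an END-seq value of 0 have no such ratio, and 4 of them were among the sites with the most prey. Whether a listed 0 is a measured absence of breaks or a missing value could not be checked, because END-seq reads were not analysed here, so "without END-seq signal" below means only a listed value of 0. Of the 266 sites with an END-seq value of 0, 16 (6.02%) had prey, but together they held 1615 junctions, which was 38.2% of all junctions at rarely cut sites. The 4 leading ones held 1519 of these, or 35.9% of the total, and the other 12 held 96. By comparison, sites with a cut fraction above 0 held 2455 junctions (58.0%). All 4 lay within 500 bp of a transcription start.

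Tmbim6, which encodes a membrane protein of the endoplasmic reticulum that restrains cell death, had the most prey of all rarely cut sites, at a motif in an intron 156 bp from the start. Its 549 junctions came from all 26 libraries, 347 in controls and 202 in treated libraries. Per 1000 junctions, the control libraries held between 3.01 and 6.26 (median 4.36) and the treated libraries between 3.08 and 8.96 (median 4.15). The 2 ranges overlapped. It ranked 22nd of the 1025 motifs outside chromosome 2, and 60 of the 81 strongly cut sites had fewer junctions.

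Tigd5, a gene derived from a transposable element, had a motif in its coding exon 152 bp from the start with 470 junctions in all 26 libraries. Control libraries held between 2.46 and 8.02 per 1000 (median 4.16) and treated libraries between 0.769 and 11.2 (median 4.17). Prey at this site was more spread out than elsewhere. The median distance from the cut was 29 bp and 66.6% of junctions lay within 50 bp, against 4 bp and 91.8% at Tmbim6.

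The motif in the untranslated region of Rpl41, a gene of the large ribosomal subunit, lay 484 bp from the start of Zc3h10, which encodes a zinc finger protein. It had 303 junctions in 24 libraries, between 0 and 4.01 per 1000 in controls (median 2.46) and between 0 and 4.35 in treated libraries (median 2.02). The 32 bases beside this motif occur more than once in the genome, 6 times on the left and 2 times on the right, and 77.2% of the prey lay on the plus strand. Prey from those copies cannot be told apart from prey of this motif by the flanks alone.

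Pcgf1, which encodes a Polycomb ring finger protein, had its motif in a coding exon 27 bp from the start, with 197 junctions in 24 libraries. Control libraries held between 0 and 2.68 per 1000 (median 1.51) and treated libraries between 1.04 and 3.15 (median 1.81). The next site without END-seq signal, in an intron of the zinc finger gene Zfp638 98 bp from its start, had 49 junctions in 18 libraries. The gap between it and Pcgf1 set the 4 leading sites apart from the other 12, and this division was made after their values were seen.

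**Figure D2:**
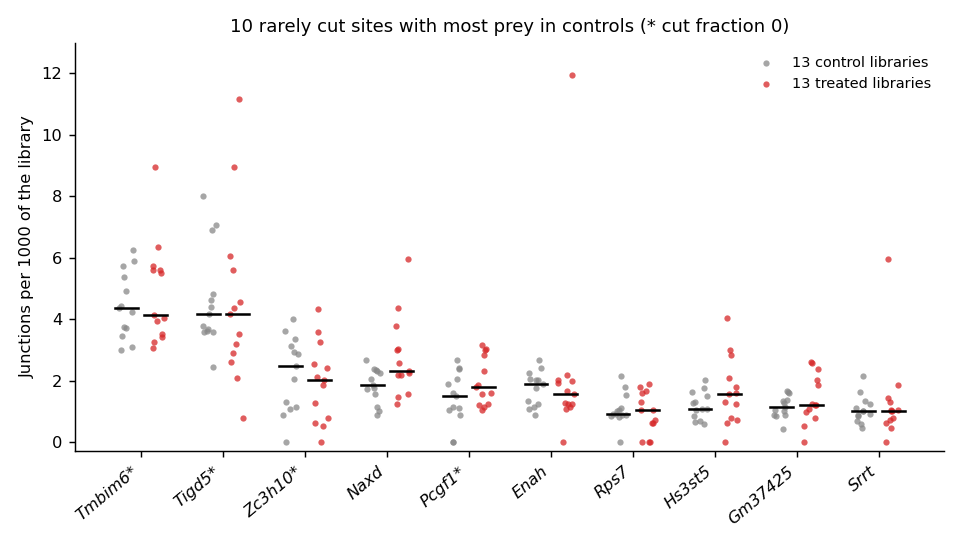
Junctions per 1000 junctions of the library (vertical axis) at the 10 rarely cut sites with the most prey in controls, 1 point per AsiSI-MEF library, with control and treated libraries in different colours and an asterisk at sites with a cut fraction of 0. Tmbim6 and Tigd5 lie above the rest, with control medians of 4.36 and 4.16, and treated libraries scatter around the controls.

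Of the 10 sites with the most prey in controls, 6 had a cut fraction above 0. Naxd, the gene of an enzyme that repairs hydrated NADH and NADPH, led them with 250 junctions in all 26 libraries at a coding exon motif 78 bp from its start. Control libraries held between 0.876 and 2.67 per 1000 (median 1.84) and treated libraries between 1.24 and 5.97 (median 2.31). A motif 334 bp from the start of Enah, which encodes an actin regulator of the Ena/VASP family, had 179 junctions in 25 libraries, with a control median of 1.90 per 1000. The other 4 had between 110 and 161 junctions each. Hs3st5 encodes a heparan sulfate sulfotransferase (161 junctions, 127 bp from the start), Rps7 a ribosomal protein (138, 146 bp) and Srrt an RNA processing factor (110, 112 bp). The intergenic motif near Gm37425 (138 junctions) was the only one of the 10 far from a start, at 16741 bp.

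Counted per END-seq RPKM, the sites with at least 20 junctions that stood highest were not all promoters. Enah had 4.97 junctions per RPKM and Naxd 4.10, against 0.664 over the summed signal of all rarely cut sites with a cut fraction above 0. An intergenic motif 20198 bp from Gm15387 had 3.89 (24 junctions in 10 libraries) and one in an intron of Galntl6, 9767 bp from the nearest start, had 3.23 (23 junctions in 14 libraries). A motif 1333 bp from the start of Syt1, the gene of a calcium sensor of synaptic vesicles, had 2.66 (54 junctions in 20 libraries). These sites were picked for a high ratio, which a small divisor raises. Their listed cut fractions were 0.04 at Enah, 0.07 at Naxd, 0.02 at Syt1 and 0.01 at the motifs near Gm15387 and in Galntl6.

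At the opposite end were sites with END-seq signal and no prey. Among those with the highest signal were Col23a1, a collagen gene, Lrrc38, Satb1, which encodes a chromatin organizer, and Stmn2, a neuronal microtubule regulator. The motifs of Col23a1, Lrrc38 and Satb1 lay 482, 555 and 206 bp from a start, so nearness to a promoter did not go with prey at each of them. Stmn2 lay 2019 bp away. The flanks of these 4 motifs are unique in the genome.

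Whether a read can be placed at a site bears on all these counts. The 32 bases beside 444 of the 783 motifs were unique in the genome on both sides, and 104 of these (23.4%) had prey. Of the 339 others, 16 (4.72%) had prey. The deposited tables hold only junctions with a mapping quality over 30, and the part of this filter in the difference was not tested. An array on chromosome 9 between 121040828 and 121042515 held 17 of the motifs, none with unique flanks, and gave 1 junction. Of the 33 rarely cut motifs on chromosome Y, 1 had unique flanks, and the chromosome gave 1 junction. Repeat-masked sequence covered more than 50% of the 500 bp around 286 sites without prey (43.1%) and of 9 sites with prey (7.50%).

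Rarely cut sites with prey lay closer to transcription starts than those without. The median distance to the nearest annotated start was 2417 bp for the 120 sites with prey and 11470 bp for the 663 without. It was 212 bp for moderately cut and 159 bp for strongly cut sites. Among the 81 rarely cut sites within 500 bp of a start, 40 (49.4%) had prey, and these 40 held 3289 of the 4231 junctions. The share was 8 of 43 (18.6%) from 500 bp to 1 kb and 15 of 81 (18.5%) from 1 to 3 kb. Farther away it was 12 of 174 (6.90%) from 3 to 10 kb, 39 of 355 (11%) from 10 to 100 kb and 6 of 49 (12.2%) beyond 100 kb. Sites more than 3 kb from a start thus still made up 57 of the 120 with prey, but they held 544 junctions in all. With unique flanks only, the shares in the same order were 51.4%, 23.5%, 24.1%, 12.9%, 16.8% and 35.7%, the last over 14 sites.

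**Figure D3:**
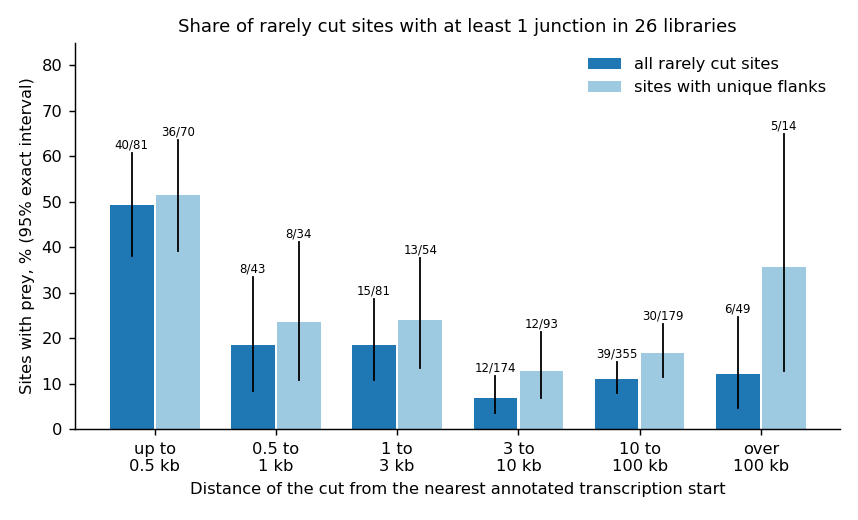
Percentage of rarely cut sites with at least 1 junction in 26 libraries (vertical axis, with exact 95% intervals that cover counting error only) by distance of the cut from the nearest annotated transcription start (horizontal axis), for all sites and for those with unique flanks. The share is highest within 500 bp, at 49.4% of all sites and 51.4% of those with unique flanks.

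The promoter position and the cut fraction went together. Of the 113 sites with a cut fraction above 0, 49 lay within 500 bp of a start, and 32 of these (65.3%) had prey with 1692 junctions in all. The 64 farther away had prey at 36 (56.3%), with 763 junctions. Of the sites with a cut fraction of 0, 32 lay within 500 bp, and 8 of them (25%) had prey. Those 8 held 1597 junctions, of which the 4 leading sites gave 1519. Sites with a cut fraction of 0 farther than 500 bp from a start had prey in 6.90% of cases, with 179 junctions. Among cut fraction 0 sites with unique flanks, the 40 with prey lay a median of 14274.5 bp from a start and the 298 without prey 9362 bp, so here the order was turned.

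In single libraries, the larger part of the prey at rarely cut sites was at promoters, as at the other sites. In the 13 controls, 78.7% ± 3.56 of junctions at rarely cut sites were at sites within 500 bp of a start, against 83.1% ± 1.79 at moderately cut and 82.3% ± 1.79 at strongly cut sites (SD, n = 13). Within 3 kb it was 88.8% ± 3.01, 95.9% ± 0.878 and 97.1% ± 0.610. The values of rarely cut sites rest in large part on the 4 leading sites without END-seq signal. Over the 26 libraries these gave 1519 of the 3289 junctions within 500 bp of a start. At rarely cut sites with a cut fraction above 0, 1692 of 2455 junctions were within 500 bp. About 15.1% of the chromosome sequence lies within 3 kb of a start. Of the motifs themselves, 26.2% of the rarely cut, 91.9% of the moderately cut and 95.1% of the strongly cut ones do. By annotation, 50 of the 120 sites with prey were intergenic, 44 intronic, 13 in coding exons, 12 in untranslated regions and 1 in a non-coding exon. By chromosome, 25.1% of junctions were on chromosome 15, 14.5% on chromosome 10 and 11.2% on chromosome 8, where Tmbim6, Tigd5, the Rpl41 motif and Naxd lie.

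Prey lay at the cut itself. The median distance of the junction from the cut was 4 bp, which is the edge of the motif, and 4.40% of junctions were between 100 and 500 bp away. From 500 bp to 10 kb around these sites there were 660 junctions, or 0.0444 per kb and site, against 5.40 per kb and site under 500 bp. In the 13 controls, 90.9% ± 3.83 of junctions at rarely cut sites were within 50 bp, and 89.1% ± 3.29 at more often cut sites (SD, n = 13). Libraries were higher at rarely cut sites in 9 of 13 cases (exact 2-sided sign-flip test, p = 0.0977). The 4 leading sites that lack END-seq signal were set apart only after their values were seen. Without them, the difference was 5.59 percentage points, higher in 13 of 13 (exact p = 0.000244), which is not a planned test.

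Long overlaps between bait and prey were more frequent at rarely cut sites. An overlap is the number of read bases that fit both sides of the junction, and 6 nt or more is called long. Long overlaps made up 55.7% ± 15.8 of junctions at rarely cut sites and 36.6% ± 12.5 at more often cut sites in the 13 controls (SD, n = 13). The difference was 19.1 ± 5.73 percentage points and went the same way in 13 of 13 libraries (exact 2-sided sign-flip test, p = 0.000244, the smallest this test can give, adjusted p = 0.000407 over 5 features). Overlaps of 1 to 5 nt were less frequent, 24.1% ± 9.20 against 33.8% ± 7.69, as were junctions without overlap or insertion, 14.1% ± 6.94 against 19% ± 6.58. Both were lower in 13 of 13 libraries (exact test, adjusted p = 0.000407 each). Junctions with inserted bases made up 6.06% ± 2.96 against 10.6% ± 2.75, lower in 12 of 13 (exact test, adjusted p = 0.00061). Against moderately cut sites alone, the difference in long overlaps was 9.09 percentage points, in 13 of 13 libraries (exact test, adjusted p = 0.00122).

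Long overlaps made up a larger share at rarely cut sites with a cut fraction above 0 than at either class of more often cut sites. The mean was 30.3% ± 11.3 at strongly cut sites, 46.6% ± 14.5 at moderately cut sites and 66.4% ± 16.7 at rarely cut sites with a cut fraction above 0 (SD, n = 13 each). At sites with a cut fraction of 0 and some END-seq signal it was 85.3% ± 14.2 (SD, n = 10 libraries with such junctions). At the 12 lesser sites without END-seq signal it was 86.1% ± 22.1 (SD, n = 12). These last 2 means rest on few junctions per library, and over the pooled junctions of all 26 libraries the values were 78.3% of 161 and 72.9% of 96. The 4 leading sites without END-seq signal stood apart, at 35.1% ± 17.3 (SD, n = 13), close to the strongly cut sites. Over all 26 libraries the value was 21.1% at Tmbim6, 32.1% at Tigd5, 20.1% at the Rpl41 motif and 40.1% at Pcgf1, but 67.3% at Zfp638 and 87.0% at the Galntl6 motif. The steps between classes within the rarely cut sites were not tested. Leaving out the 4 sites was decided after their values were seen. Without them, the difference between rarely and more often cut sites was 31.3 percentage points in place of 19.1 (13 of 13 libraries, exact p = 0.000244).

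**Figure D4:**
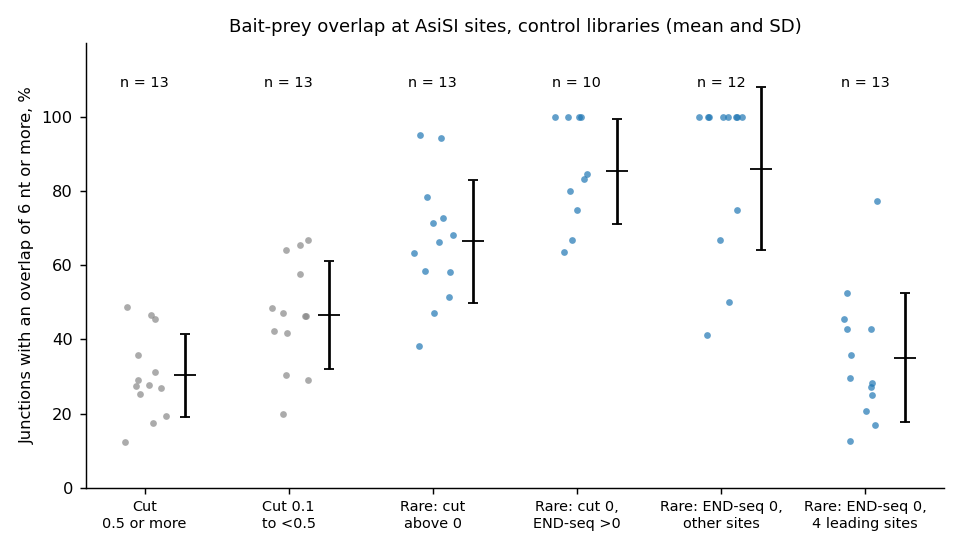
Percentage of junctions with a bait-prey overlap of 6 nt or more (vertical axis) in 6 classes of AsiSI sites, 1 point per control library that has junctions in the class, with the mean and SD. The mean goes from 30.3% at strongly cut sites to 66.4% at rarely cut sites with a cut fraction above 0, while the 4 leading sites without END-seq signal have 35.1%.

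Most of these long overlaps spanned the motif. In 1767 of the 2008 junctions with a long overlap at rarely cut sites (88.0%), the overlap was at least 8 nt and both the bait and the prey alignment covered the whole motif. These were 41.8% of all 4231 junctions at rarely cut sites. At moderately cut sites 87.0% of long overlaps were of this kind, and at strongly cut sites 78.7%. With each prey position and strand counted 1 time per library, the difference in long overlaps was 22.0 percentage points (13 of 13 libraries, exact p = 0.000244). Across libraries, 81.4% of junctions at rarely cut sites shared position and strand with a junction of another library.

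In the Cas9 libraries, without AsiSI, rarely cut sites received almost no prey, and more often cut sites also received little. The 6 Cas9 libraries had 409 of 19414 junctions at moderately and strongly cut sites. In the 26 AsiSI-MEF libraries, moderately cut sites held 20733 and strongly cut sites 30574 of 113691. Of junctions at motifs on other chromosomes, rarely cut sites held 3.97% ± 3.64 in the 3 Cas9 libraries with DMSO and 6.92% ± 0.872 in the 13 controls (SD). The first value rests on 1 of 21, 0 of 10 and 5 of 70 junctions. Over all 6 Cas9 libraries the mean was 6.44% ± 5.20 (SD), near that of the controls. Rarely cut sites took 3.48% ± 0.459 of all junctions in the 13 AsiSI-MEF controls (SD, 2.50% to 4.38%) and 0.0833% ± 0.112 in the 3 Cas9 libraries with DMSO (SD, 6 of 8066 junctions). This difference was tested by an exact 2-sided permutation of libraries (p = 0.00357, adjusted p = 0.00476 over 4 tests). Sites with a cut fraction above 0 had 2.05% ± 0.300 against 0.0281% ± 0.0486 (SD, exact p = 0.00357). Sites without END-seq signal had 1.34% ± 0.167 against 0.0412% ± 0.0421 (SD, exact p = 0.00357), so their prey, too, was largely found where AsiSI was present. Sites with a cut fraction of 0 and some END-seq signal had 0.0914% ± 0.0776 against 0.0140% ± 0.0243, which did not pass the test (exact p = 0.143). The compared groups also differed in cells, induction drugs and bait nuclease, which cannot be told apart from the presence of AsiSI here.

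The 6 Cas9 libraries together had 27 junctions at rarely cut sites among 19414. Their number was 1, 0 and 5 in the DMSO libraries, and in the CK-666 libraries it was 13, 3 and 5. They fell on 15 sites, with at most 5 at 1 site (Naxd), 23 lay within 50 bp of the cut and 20 had a long overlap. All 6 libraries came from 1 sequencing run that also held a pair of AsiSI-MEF libraries. In that run the AsiSI-MEF library with DMSO had 3.65% of its junctions at rarely cut sites (95% Wilson interval 3.15% to 4.22%).

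Inhibition of ARP2/3 by CK-666 left the share of prey at rarely cut sites without a change that passed the test. The 6 CK-666 libraries had 3.04%, 5.37%, 2.94%, 4.19%, 3.74% and 3.22% of all junctions there, and their paired DMSO libraries 3.18%, 3.32%, 3.50%, 4.00%, 3.39% and 4.38%. The groups overlapped, with CK-666 higher in 3 pairs and lower in 3. The mean log2 ratio was 0.02 ± 0.39 (SD, n = 6 pairs, exact 2-sided sign-flip test, p = 0.844, adjusted p = 1 over 4 tests). Within the 2 pairs of 1 sequencing run it was 0.32 and within the 4 pairs of another it was -0.12. As a share of junctions at motifs on other chromosomes, the values were 7.25% ± 1.13 with CK-666 and 6.83% ± 1.06 with DMSO (SD, n = 6). That log2 ratio was 0.09 ± 0.32, higher in 4 of 6 pairs (exact p = 0.5625). The CK-666 library of replicate 2 had only 335 junctions, 18 of them at rarely cut sites, and without that pair the first ratio was -0.11. All treatment comparisons here and below use shares within a library, so a change common to all junctions of a library would not show. The study normalized to bait-only sequences and reported lower translocation frequencies with CK-666, wiskostatin, actin R62D-NLS and NU7441. That frequency was not computed here.

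With NU7441, which inhibits DNA-PKcs, the share among interchromosomal motif junctions was higher in each of 3 pairs, for which 0.25 is the smallest p of the sign-flip test. The 3 NU7441 libraries had 8.77%, 7.29% and 9.92% of these junctions at rarely cut sites, and their DMSO libraries 6.46%, 6.54% and 8.03%. The groups overlapped in this range, but each treated library lay above its own control. The log2 ratio averaged 0.30 ± 0.14 (SD, n = 3 pairs, exact p = 0.25, the smallest possible, adjusted p = 1). Of all junctions, the shares were 3.58%, 2.15% and 5.66% against 2.50%, 3.19% and 3.82%, and the log2 ratio averaged 0.17 ± 0.64, higher in 2 of 3 pairs (exact p = 1). Within runs this ratio was -0.02 over 2 pairs and 0.57 in the third. At sites with a cut fraction under 0.05 the ratio among interchromosomal motif junctions was -0.03, so its direction depended on the sites counted.

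The other actin treatments had 2 pairs each, for which the smallest p of the sign-flip test is 0.5, and were not tested. With wiskostatin, 4.26% and 4.05% of all junctions were at rarely cut sites against 3.19% and 3.65% with DMSO, log2 ratios of 0.42 and 0.15, and the 2 groups did not overlap. With actin R62D-NLS the values were 3.96% and 3.54% against 3.68% and 3.51% with empty vector, log2 ratios of 0.11 and 0.01. Among interchromosomal motif junctions, the mean log2 ratio was 0.19 for wiskostatin and -0.05 for R62D-NLS.

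**Figure D5:**
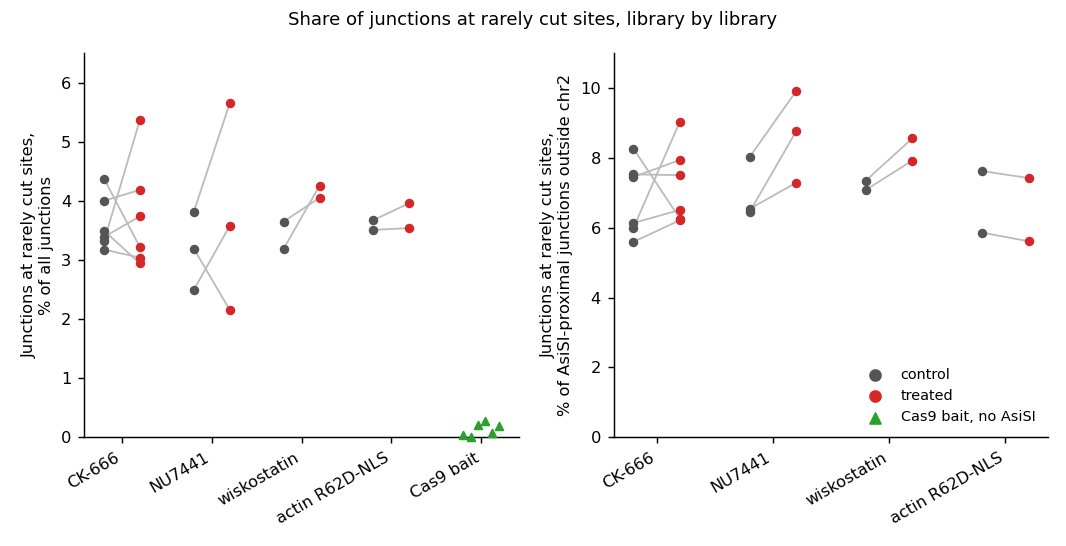
Percentage of junctions at rarely cut sites, of all junctions and of junctions at motifs on other chromosomes (vertical axes), for each library, with lines joining treated and control libraries of a pair and triangles for the Cas9 libraries without AsiSI. Treated and control libraries overlap in every experiment except wiskostatin, and the Cas9 libraries lie near 0 in the share of all junctions.

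Junction structure at these sites was compared in the same pairs. Long overlaps at rarely cut sites made up 79.7%, 82.1% and 39.3% with NU7441 against 55.3%, 51.3% and 29.5% with DMSO. Each treated library was above its control, by 21.7 ± 10.8 percentage points on average (SD, n = 3 pairs, exact p = 0.25, the smallest possible). The third pair lay below the other pairs in both groups. At more often cut sites the values were 58.9%, 73.9% and 23.9% with NU7441 against 31.7%, 35.4% and 15.4% with DMSO. The higher share with NU7441 was thus not particular to rarely cut sites. With CK-666 the value was 63.6% ± 10.6 against 64.6% ± 14.5 (SD, n = 6 pairs, exact p = 0.875).

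Single sites were compared with limma over all motifs outside the bait that had at least 10 junctions in the experiment, with the pair as a factor. In the CK-666 experiment 259 motifs were tested and 0% passed an adjusted p of 0.05, none of them among the 29 rarely cut sites tested. At an unadjusted p under 0.05 there were 11 motifs, 1 of them rarely cut, and limma voom also called 0. Of the 29 rarely cut sites, 19 were higher and 10 lower with CK-666, with a median log2 difference of 0.14 beside 0.01 over all motifs tested. The direction did not hold under other settings. With a pseudocount in proportion to library size, 9 were higher and 20 lower (median -0.26 beside -0.25 over all motifs), and without replicate 2, 11 were higher and 18 lower (median -0.10). Only 29 of the 783 sites had enough junctions to enter, so most of them have no test of their own.

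In the NU7441 experiment 7 of 258 motifs passed (2.71%), 3 higher and 4 lower, and 1 of the 31 rarely cut sites tested was among them. Without replicate 1, 0 of 27 rarely cut sites tested were called, and without replicate 3, 0 of 9. Without replicate 2 it was 5 of 29, among 32 motifs called in all, so those calls were not particular to rarely cut sites. With all 3 pairs, the site called was Gprc5c, the gene of an orphan G protein-coupled receptor. Its motif lay in an untranslated region 137 bp from the start. This site had too few junctions to be tested without replicate 1 or 3. It had 2, 0 and 5 junctions with NU7441 (1.04, 0 and 0.788 per 1000) and 0, 0 and 3 with DMSO (0, 0 and 0.172 per 1000). The replicate 2 pair had none in either library. limma gave a log2 difference of 2.20 (SE 0.625, adjusted p = 0.0291), which rests on 10 junctions in all. The call was lost without the pair as a factor (adjusted p = 0.0953), and with a pseudocount in proportion to library size, chosen after seeing the data (log2 difference 1.81, adjusted p = 0.458). Of the 31 sites, 23 were higher and 8 lower with NU7441, with a median of 0.43 beside 0.21 over all motifs. Under the proportional pseudocount these medians were -0.02 and -0.06, so the direction depended on the pseudocount.

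The 4 leading sites without END-seq signal showed no change with NU7441 that passed the test. The log2 difference was -0.98 at the Rpl41 motif (limma adjusted p = 0.296), -0.67 at Tigd5 (adjusted p = 0.334), -0.15 at Tmbim6 (adjusted p = 0.890) and 0.63 at Pcgf1 (adjusted p = 0.470). On simulated data with the same library totals, limma called 45.7% of 4-fold changes and 13.5% of 2-fold changes among 258 motifs. A 2-fold change was thus usually not called among the simulated motifs. The counts were drawn with an assumed spread between libraries and no pair effect. The changed motifs were drawn from all 258, so the rates are averages over motifs with few and many junctions. They do not give the rate at these 4 sites.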

How the data were processed

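Each deposited table holds the junctions of 1 HTGTS library, 1 line per junction, made by the authors from MiSeq reads with the Burrows-Wheeler Aligner on mm10 and the translocation pipeline at default filters, with duplicates removed and a mapping quality over 30. Pipeline versions are not given in the sources used here. The deposited values are positions, strands and read coordinates, with no normalization, so all shares were computed within a library. The 12 Hi-C samples of the 44 were not used here. After removal of junctions within 10 kb of the bait (chr2:13271321) and outside the numbered and sex chromosomes, there were 113691 of 123783 in the 26 AsiSI-MEF libraries, and each was assigned to the nearest of 1109 listed motifs under 500 bp away. The cut fractions and END-seq signals that define the classes come from the study's motif list, and END-seq reads were not analysed here. All 1109 motifs were found in the RefSeq GRCm38 genome. Transcription starts and features come from GENCODE vM21.

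Pairs were formed from libraries that share a replicate number in the labels. The study's source data scale each control to 1 per replicate, but their numbering does not map onto that of the labels. Both libraries of a pair come from 1 sequencing run, though some runs hold several pairs, so the pairing of those rests on the labels' numbers alone. Shares were compared by exact 2-sided sign-flip tests over pairs (smallest p 0.03125 with 6 pairs, 0.25 with 3), rarely against more often cut sites by sign flips over 13 controls, and Cas9 libraries by exact permutation, with Benjamini-Hochberg adjustment. Single motifs were tested in limma (trend = TRUE), taking log2 of (junctions + 0.5) per library total, at an adjusted p under 0.05, after a test on simulated data. Wilson intervals (95%) and the limit of 3 counts cover counting error only. Named sites were the 10 with most junctions in controls, the 5 of cut fraction 0 with most, the 5 with most junctions per END-seq RPKM (at least 20 junctions), the extremes on either side of the threshold, the 5 with the highest END-seq signal and no prey (1 of which is not reported here), and those called by limma, with the gene of the nearest start or the overlapping gene. The members, lists and tests were chosen with earlier results of these data known. Alternatives were other distances, cut fraction limits, denominators, filters, pseudocounts, unique flanks, positions counted 1 time, and leaving out each pair. The software was limma 3.58.1 in R 4.3.3, and scipy 1.17.1, numpy 2.4.6, matplotlib 3.10.9 and pandas 2.3.3 in Python 3.11.15.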

Additional observations from a re-analysis of the deposited data

Results flagged for a closer look

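Of 40 tests for a single outlying library (20 measures, each in the 6 CK-666 and the 6 DMSO libraries), 2 picked out a sample, both times the CK-666 library of replicate 2, the smallest of all with 335 junctions. Chance alone picks out about 1 group in 20. At the Enah motif this library had 11.9 junctions per 1000, which is 4 junctions, while the other 5 had between 1.08 and 2.02 per 1000. At the Srrt motif it had 5.97 per 1000, which is 2 junctions, while the other 5 had between 0.621 and 1.31.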

How the results depend on the processing

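Site counts, junctions per END-seq unit, the comparison with the Cas9 libraries and the higher share of long overlaps kept their direction and side of the threshold under all alternatives run for them. The treatment ratios (log2) of CK-666 and NU7441, and that of R62D-NLS over all junctions, changed sign under some alternatives, while both wiskostatin ratios stayed positive and the R62D-NLS interchromosomal ratio stayed negative. For CK-666 the ratio of all junctions was -0.12 without the 4 leading sites, an alternative chosen after seeing the data, and -0.11 to 0.12 when a pair was left out, negative only without replicate 2. Among interchromosomal motif junctions it was -0.054 and -0.015 to 0.18. For NU7441 the ratio of all junctions was -0.16 at cut fractions under 0.05, -0.18 at 0, and -0.024 to 0.54 when a pair was left out (lowest without replicate 3), and the interchromosomal ratio was -0.030, -0.053 and 0.23 to 0.37. The wiskostatin interchromosomal ratio was 0.063 at cut fractions under 0.05, 0.061 at 0, 0.14 with positions counted 1 time, 0.23 with unique flanks and 0.30 without the 4 sites. For R62D-NLS it was -0.14, -0.0047, -0.093 and -0.069 over the first 4 of these, and its ratio of all junctions was -0.024 at cut fractions under 0.05. The cause of these shifts was not tested.

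The higher share of junctions within 50 bp of the cut did not pass with all sites. It passed in the 6 DMSO libraries alone (4.11 percentage points, exact p = 0.03125), with positions counted 1 time (3.31, exact p = 0.0132) and for cut fractions above 0 (5.35, exact p = 0.000488). It also passed without the 4 sites (5.59), an alternative chosen after seeing the data. Junctions without overlap or insertion did not pass against moderately cut sites alone (-1.58, exact p = 0.0549). The share of sites within 500 bp of a start was 55.8% for sites with at least 10 junctions (33.3% for all with prey) and 10.0% for those without prey and with unique flanks (6.18% for all).

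The count of 7 of 258 motifs called with NU7441 was 13 of 287 at a minimum of 5 junctions, 3 of 225 at 20 and 26 of 344 with no filter. Of the same 258 it was 17 with a pseudocount of 1, 31 with motif junctions as denominator and 2 with the proportional pseudocount. Of rarely cut sites, 1 was called among 31, and 4 of 47 at a minimum of 5, 0 of 16 at 20, 14 of 93 with no filter, 3 of 31 with a pseudocount of 1, and 0 with the proportional pseudocount. Leaving out a pair gave 0 (without replicate 1), 32 (without replicate 2, 30 higher and 2 lower) or 1 (without replicate 3). Gprc5c had too few junctions to be tested without replicate 1 or 3, and without replicate 2 had 2.84. The Tmbim6 difference with NU7441 was between -0.32 and 0.060 when a pair was left out.

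Same-numbered libraries correlated between 0.0227 and 0.164 by pair for CK-666 and between 0.0512 and 0.217 for NU7441 in their deviations over motifs. For 5 of 6 CK-666 pairs a library of another number correlated more highly (highest 0.187), and for NU7441 none did, so the motifs do not bear out the CK-666 pairing. Without the replicate block, the exact permutation p of the share of all junctions was 0.881 for CK-666 (log2 ratio 0.02) and 0.9 for NU7441 (0.17), 3 motifs were called with NU7441 and 0 with CK-666, and of the named sites only Gprc5c lost its call. Depth limits single sites most. An empty site in the smallest library could hold up to 0.896% of its junctions (3 counts).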
